A study of Quercus robur with 165 samples.

Results

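The 100 genes described here were low in roots of pedunculate oak (Quercus robur) seedlings at harvest 2 and higher at harvests 1 and 3. They were chosen by their expression in long, normal roots from containers, in lateral root and in taproot, as the mean TPM (a transcript level scaled by gene length and by the total of the library) of 3 libraries in each of 6 groups. Of 35397 genes, 19935 had a mean of at least 2 TPM over these 6 groups. Each was scored by the smallest of 4 log2 ratios, harvest 1 over harvest 2 and harvest 3 over harvest 2 in both root types, after adding 0.5 TPM, and the 100 highest scores were taken. The 11 genes with RT-qPCR assays in the study were to be left out, and none of them was among the 100 highest.

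The series holds 165 root RNA-seq libraries in 55 groups of 3, numbered as biological replicates, 25 groups in Dataset 1 and 30 in Dataset 2. In Dataset 1 the seedlings of harvest 1 were 7 weeks old and those of harvests 2 and 3 were 8 weeks old. Seedlings of harvests 1 and 2 were sown in early spring and those of harvest 3 in early summer, so age and harvest date cannot be told apart between harvests 2 and 1, nor sowing and harvest date between harvests 3 and 2. Neither the labels nor the methods say how many seedlings entered a library. The groups differ further by root part (K, meristematic zone of the taproot; KB, lateral root, whose zone the codes do not give; and, in Dataset 2 alone, SW, the elongation zone of the taproot), by length (kr short, sr medium, dl long), by state (NN normal, NT dying, TN thick, TT thick and dying) and by cultivation (kon, containers; rh, rhizotrons, which are flat boxes with clear walls; krh, transplanted out of a container into a rhizotron). For Dataset 1 the methods name the meristematic zone as the source of both taproot and lateral root material. All plants were Q. robur seedlings, and no group was given a drug or a genetic change. By the methods, root growth of container seedlings was inhibited by air pruning, and all groups that chose the members were from containers. Dataset 2 was grown from 2-year-old acorns of the same lot, except for the transplanted seedlings, moved at 1 year old and harvested 8 weeks later.

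A growing root tip is renewed by the cells that divide in its meristematic zone, and these lengthen in the elongation zone behind it. Oak seedlings first send down a single taproot fed by the reserves of the acorn, and lateral roots branch from it later. The transcripts were assembled from the reads of the study, and the sources used here pair the identifiers of the members (MSTRG numbers) with no gene names, so the members are described by their levels and no function is given to any of them.

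Depth was even within each dataset, with 20037169 to 24793325 expected counts per library in Dataset 1 and 22882800 to 33341476 in Dataset 2. Beyond counting noise, libraries of the same group differed by a coefficient of variation of 0.0575 at the median over the 165 pairs and 0.441 at the most, and 78 pairs, called near-identical here, were under 0.05. In 6 of the 18 pairs in the groups that chose the members this was so, and all 3 libraries of long container lateral roots at harvest 3 were that close. Such libraries still differed by more than counting noise, and the methods describe the replicates as independent samples. The sources used here tie no library to a seedling, however, so p-values measure only a spread between these libraries that may be technical. Counts of members are therefore also given with near-identical libraries summed, for root parts only at an unadjusted p under 0.05. Libraries of different groups were also near-identical in 3 pairs, all between long rhizotron taproots and dying long container taproots at harvest 2 (2K_dl_NN_rh and 2K_dl_NT_kon, coefficients 0.0316 to 0.0417). The labels conflict for a group that chose the members, the long container taproots of harvest 1 (1K_dl_NN_kon), whose code says long and whose description says short, and for a Dataset 2 group (K_dl_NT_krh), whose code says dying and whose description does not. Both were used by their codes.

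In the groups that chose them, the members were low at harvest 2 by construction. The median over the 100 members in each library of lateral roots was 6.49, 10.4 and 12.6 TPM at harvest 1, 1.49, 1.64 and 1.79 TPM at harvest 2, and 8.25, 8.42 and 8.44 TPM at harvest 3. In taproots it was 2.86, 5.37 and 8.60 TPM at harvest 1, 1.60, 1.79 and 2.27 TPM at harvest 2, and 5.60, 6.18 and 6.85 TPM at harvest 3. By the ratio of the highest to the lowest library, the taproots of harvest 1 were the most spread of the 6 groups, and the lowest of them lay close to harvest 2. Over the 19935 genes at this level the group medians moved far less, between 12.4 and 13.9 TPM.

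The score of the members was 0.91 on the log2 scale at the median and 2.61 at the highest. The last member, MSTRG.2510, scored 0.685182 with means of 54.2, 16.5 and 26.9 TPM in lateral roots and 118, 33.3 and 53.9 TPM in taproots at harvests 1, 2 and 3. The first gene outside, MSTRG.19065, scored 0.684775 with 10.2, 6.09 and 11.6 TPM in lateral roots and 7.73, 4.51 and 7.55 TPM in taproots. No gap separates the members from the genes below them, and the number of 100 is that of the rule. A score above 0 was found for 1563 genes and a score of at least 1 for 38. The opposite pattern, high at harvest 2 alone, had a score above 0 for 3229 genes, and 94 of these reached the score of the last member.

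The ratios were smaller in taproots than in lateral roots at the median. The median ratio of harvest 1 over harvest 2 was 2.19 in lateral roots and 1.23 in taproots on the log2 scale, and that of harvest 3 over harvest 2 was 1.58 in lateral roots and 1.35 in taproots. The smallest of the 4 ratios, which is the score, was a taproot ratio in 41 members for harvest 1 and in 27 for harvest 3, and a lateral root ratio in 8 members for harvest 1 and in 24 for harvest 3. In lateral roots every library of harvest 2 lay below every library of harvests 1 and 3 in 73 members (10.4% of the 19935 genes), in taproots in 20 (0.878% of the genes), and in both in 16 (0.291% of the genes). The rule itself favours these counts, and nothing is read from them.

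**Figure D1:**
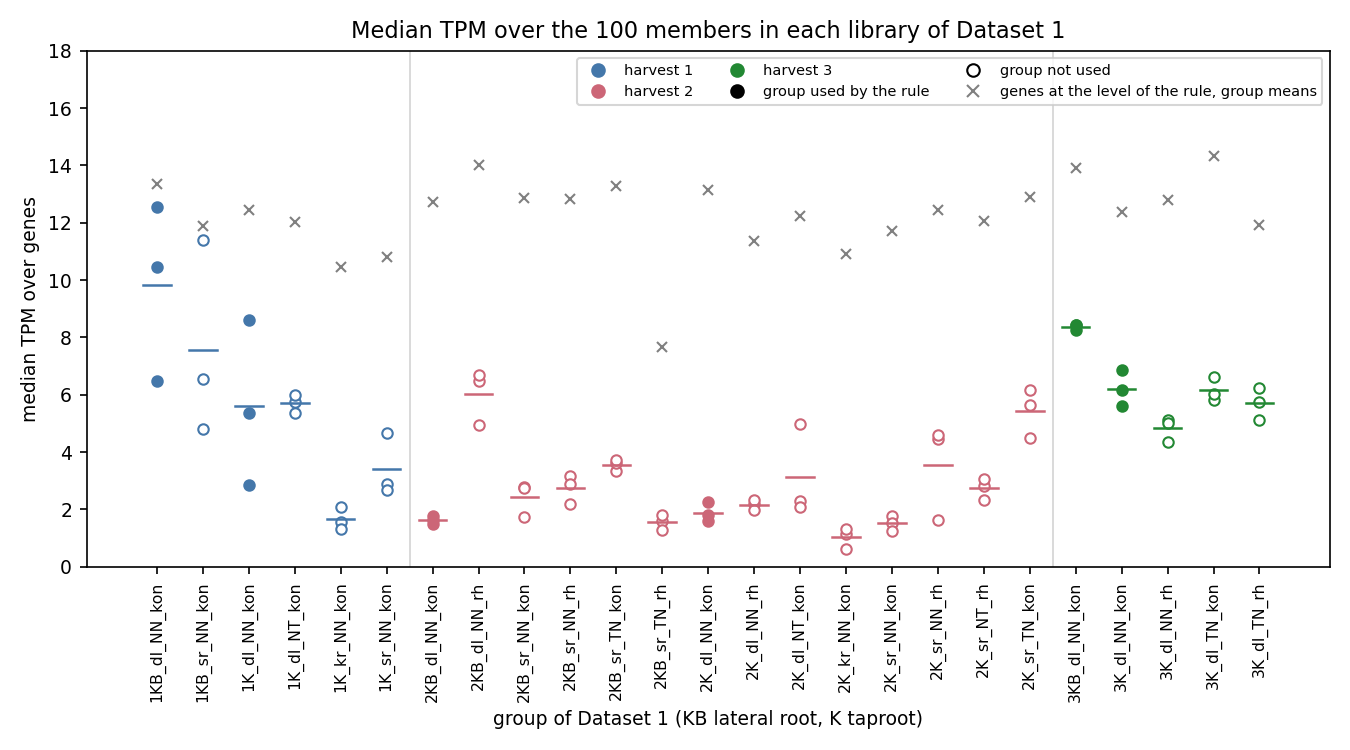
Median TPM over the 100 members (y axis, TPM) in each library of the 25 groups of Dataset 1 (x axis, ordered by harvest, lateral roots before taproots). Filled points are libraries of the 6 groups that chose the members, open points are other libraries, bars are means of the 3 points of a group, and crosses are the median over 19935 genes of their group means. Open points of harvest 3 lie between 4.37 and 6.61 TPM, and open points of harvest 2 between 0.605 and 6.71 TPM.

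The highest score was that of MSTRG.6365. In lateral roots it had 15.7, 15.2 and 3.50 TPM at harvest 1, 0.52, 0.22 and 0.26 TPM at harvest 2, and 5.16, 4.12 and 4.45 TPM at harvest 3. In taproots it had 16.9, 7.25 and 4.21 TPM, then 0.55, 0.58 and 0.97 TPM, then 8.64, 6.42 and 7.95 TPM. No library of harvests 1 and 3 was as low as the highest of harvest 2 in either root type. MSTRG.19684, with the next score, was at 0 TPM in all 3 lateral root libraries and in 2 taproot libraries of harvest 2, but also in 1 library of harvest 1 in each root type. Its highest value in these 18 libraries was 8.79 TPM, and in 0 of the 55 groups was it detected, meaning at least 10 expected counts in all 3 libraries.

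The highest levels belonged to 2 other members. MSTRG.19097 averaged 347 TPM over the 6 groups, with 1352, 1323 and 460 TPM in lateral roots at harvest 1, 144, 202 and 146 TPM at harvest 2, and 296, 289 and 297 TPM at harvest 3. In taproots it had 469, 184 and 92.0 TPM, then 76.6, 107 and 105 TPM, then 242, 234 and 223 TPM. Its lateral root libraries separated by harvest, and its taproot libraries of harvests 1 and 2 overlapped. MSTRG.4563 averaged 341 TPM, with 608, 591 and 612 TPM in lateral roots at harvest 1, 354, 361 and 374 TPM at harvest 2, and 789, 800 and 803 TPM at harvest 3. In taproots it had 82.1, 151 and 50.3 TPM, then 15.7, 74.1 and 77.3 TPM, then 127, 129 and 142 TPM, so that harvests 1 and 2 overlapped in taproots.

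Most other members were of low abundance. Their mean over the 6 groups ran between 2.00 and 347 TPM with a median of 6.14 TPM, against 13.8 TPM over all genes at the level of the rule. In 36 members the mean was at least 10 TPM and in 40 it was under 5 TPM. Together the members took between 0.0303% and 0.489% of all TPM in a library. As a measure of length, the ratio of count to TPM relative to the median gene of a library was 0.504 at the median of the members (quartiles 0.234 and 0.819), against quartiles of 0.581 and 1.43 over all genes at that level. Short genes collect fewer counts at the same TPM, so the group means of short members rest on few reads. Expected counts, which are not whole where reads could come from several genes, were not whole within 0.005 in over 50% of libraries for 23 members, and for 22.3% of genes at the level of the rule.

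Detection outside the groups of the rule was uneven. The median member was detected in 42 of the 55 groups, 20 members in all 55, 37 in all 30 groups of Dataset 2, and 13 in no group of Dataset 2. Across the 19 groups of Dataset 1 that did not choose the members, the mean Spearman correlation between pairs of members was 0.193, against 0.0923 for pairs of genes at the level of the rule. Across the 30 groups of Dataset 2 it was 0.106, against 0.0817. These correlations are descriptive, since groups share root part, cultivation and near-identical libraries, and no test was run on them.

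To ask whether the members were also low at harvest 2 in roots that did not choose them, harvest 2 was compared with harvest 1 in the 4 matched pairs outside the rule, which are dying long, short normal and medium normal container taproots and medium normal container lateral roots (12 libraries in each arm). Of 87 members with enough counts to be tested, 39 were lower and 0 higher at harvest 2 by edgeR's quasi-likelihood test with Benjamini-Hochberg adjustment over 25421 genes, where 4.06% of the genes were lower and 0.936% higher. At an unadjusted p under 0.05 of this test, 50 members were lower and 1 was higher. With near-identical libraries summed these were 49 and 0, where 13.02% of 25954 genes in both directions had such a p. DESeq2 called 43 lower and 0 higher, while limma on TPM called 40 lower and 1 higher. The split of all genes moved with the scaling, with 542 higher and 835 lower without TMM factors, in place of 238 and 1033, and that of the members was then 0 higher and 37 lower. Without the filter on low counts, 39 of all 100 members were lower, as were 2.71% of genes. The fitted log2 fold change of the tested members was −1.43 at the median, that of all genes 0.00. In bulk tissue, fewer cells of a type and less RNA per cell cannot be told apart in any of these differences.

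The median of the members was lower at harvest 2 in each of the 4 pairs. By group means 70 of the 100 members were lower in dying long taproots (45.33% of genes at the level of the rule). The median log2 ratio of the members there was −0.88 on the TPM + 0.5 scale. In short taproots 72 were lower (39.26% of these genes) with a median of −0.53. In medium taproots 71 were lower (33.84%) with −0.68, and in medium lateral roots 73 (31.28%) with −1.09. Over all genes at the level of the rule, the medians of these pairs lay between 0.06 and 0.16. In 38 members the group mean was lower at harvest 2 in all 4 pairs, against 5.44% of the genes. Libraries of harvest 2 all lay below those of harvest 1 in 43 members in dying long taproots (19.9% of genes), 28 in short taproots (4.69%), 38 in medium taproots (6.66%) and 45 in medium lateral roots (6.75%). They all lay above in 9 members in dying long taproots (18.5%), 3 in short taproots (7.53%), 5 in medium taproots (18%) and 3 in medium lateral roots (23.4%).

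The calls depended on which libraries were used. With near-identical libraries summed, 30 members were lower, all of them among the 39. Without replicate 2 of every group 12 were lower, without replicate 3 there were 19, and without replicate 1 there were 44. The 3 taproot pairs alone gave 22, all among the 39. Without the dying long pair, which holds the libraries near-identical to another group, 40 were lower, 35 of them shared. Of these alternatives and the others tried, limma and leaving out replicate 1 called 1 member each higher at harvest 2. Depth was 20192072 to 23206736 counts at harvest 2 and 20422050 to 23923177 at harvest 1, and the 3 genes with the most expected counts held 3.63% to 11.6% of all counts in a library at harvest 2 and 2.39% to 15.02% at harvest 1.

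**Figure D2:**
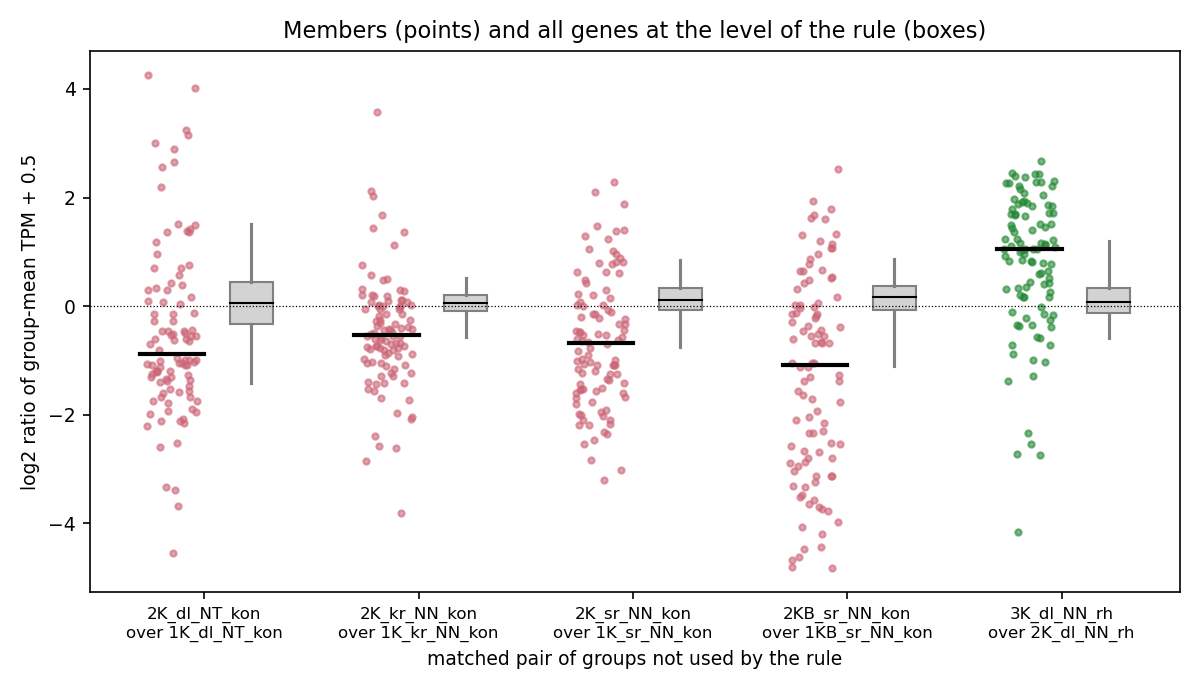
Log2 ratio of group-mean TPM + 0.5 (y axis) of the 100 members (points, black bar at their median) in the 5 matched pairs of groups that did not choose them (x axis), beside all 19935 genes at the level of the rule (box, quartiles with the median; lines reach the 5% and 95% quantiles). Medians of the members lie between −1.09 and −0.53 for harvest 2 over harvest 1 and at 1.05 for harvest 3 over harvest 2.

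MSTRG.15291 and MSTRG.32014 had the largest falls among called members that were lower in each pair and averaged 5 TPM or more. In medium lateral roots MSTRG.32014 had 0.62, 1.22 and 1.48 TPM at harvest 2, against 48.3, 19.1 and 66.9 TPM at harvest 1. In medium taproots it had 0.85, 1.38 and 1.3 TPM at harvest 2, against 14.3, 18.1 and 12.7 TPM at harvest 1. In short taproots it had 1.60, 2.00 and 0.67 TPM at harvest 2, against 7.08, 4.38 and 2.5 TPM at harvest 1. The libraries of the harvests did not overlap in these pairs, nor in dying long taproots, where it had 3.32, 2.10 and 1.31 TPM at harvest 2, against 17.6, 13.9 and 16.6 TPM at harvest 1. Its log2 fold change was −3.47 ± 0.40 (SE; edgeR adjusted p = 1.09e-05, and 1.29e-19 to 0.0103 over 12 alternatives).

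MSTRG.15291 had 0.18 to 2.38 TPM (median 0.97) in the 12 libraries of harvest 2, against 0.69 to 64.7 TPM (median 4.55) in the 12 of harvest 1. Its highest values were in medium lateral roots of harvest 1, with 64.7, 14.5 and 47.2 TPM, where harvest 2 had 1.5, 1.03 and 0.97 TPM. Its log2 fold change was −3.50 ± 0.52 (SE; edgeR adjusted p = 1.97e-04, and 8.04e-13 to 0.0404 over 12 alternatives). It was lower in all 4 pairs, and the libraries of the harvests overlapped only across different pairs.

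Of the members named for score or level, 2 fell and 2 did not pass the test. MSTRG.19097 had 22.2 to 280 TPM (median 57.2) at harvest 2, against 37.0 to 1224 TPM (median 275) at harvest 1, a log2 fold change of −1.93 ± 0.32 (SE; edgeR adjusted p = 6.60e-04, and 0.0749 without replicate 2). MSTRG.6365 had 0.14 to 7.49 TPM (median 1.27) at harvest 2, against 0.59 to 19.6 TPM (median 5.48) at harvest 1, with −2.06 ± 0.51 (SE; edgeR adjusted p = 0.0192, and 0.0777 with near-identical libraries summed; up to 0.219 over 11 alternatives). The highest of the 12 harvest 2 values of both genes was in replicate 1 of the dying long taproots, where replicates 2 and 3 had 57.5 and 57.0 TPM of MSTRG.19097. MSTRG.4563 had 14.4 to 1128 TPM (median 35.3) at harvest 2, against 5.06 to 473 TPM (median 63.0) at harvest 1, and its log2 fold change of 0.23 ± 0.33 did not pass (SE; edgeR adjusted p = 0.754). MSTRG.19684 was at 2.02 ± 0.85 (SE; edgeR adjusted p = 0.193), the opposite sign to that in the groups of the rule.

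Harvest 3 was compared with harvest 2 in the single matched pair outside the rule, long normal taproots from rhizotrons (3 libraries in each arm). Of 73 members tested, 41 were higher and 2 lower at harvest 3 by edgeR's quasi-likelihood test, where 9.72% of 22036 genes were higher and 6.4% lower. Without the filter on low counts the calls were again 41 and 2, of 99 members. Without TMM factors 2439 genes were higher and 976 lower, in place of 2141 and 1410, and the members split 44 to 2. The median log2 fold change was 1.46 over the tested members and 0.01 over all genes. By group means 76 of the 100 members were higher (59.84% of genes at the level of the rule). In 56 members every library of harvest 3 lay above every library of harvest 2 (24.4% of genes). In 7 every library lay below (12.9% of genes). The 2 members that were lower, MSTRG.14122 and MSTRG.2439, were named after their values were seen. They had 0.68, 0 and 0 TPM and 0, 1.18 and 0.93 TPM at harvest 3, against 4.24, 5.09 and 3.64 TPM and 3.24, 10.6 and 8.80 TPM at harvest 2.

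These calls, too, depended on which libraries were used. With near-identical libraries summed, 3 members were higher and 0 lower by edgeR, and 43 genes in all were called. At an unadjusted p under 0.05 of the same fit, 44 members were higher and 2 lower. Of 23466 genes, 17.45% in both directions together had such a p. Without replicate 2 there were 8 members called and without replicate 3 there were 9, all higher, whereas without replicate 1 the count was 54 higher and 9 lower. The harvest 2 group of this pair is that whose libraries were near-identical to dying container taproots.

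MSTRG.19368 and MSTRG.6834 had the largest rises by the rule for named members. MSTRG.19368 had 8.15, 8.58 and 10.3 TPM at harvest 3, against 0.78, 1.62 and 1.35 TPM at harvest 2, a log2 fold change of 2.77 ± 0.26 (SE; edgeR adjusted p = 1.17e-03, and 0.0599 with near-identical libraries summed). MSTRG.6834 had 29.2, 9.73 and 7.12 TPM at harvest 3, against 3.31, 2.08 and 1.79 TPM at harvest 2, with 2.59 ± 0.59 (SE; edgeR adjusted p = 0.0269, and 0.147 with near-identical libraries summed). MSTRG.19097 was also higher, with 134, 152 and 144 TPM at harvest 3, against 60.3, 62.1 and 62.7 TPM at harvest 2. Its log2 fold change was 1.17 ± 0.09 (SE; edgeR adjusted p = 5.64e-04, and 0.0515 with near-identical libraries summed). In none of these genes did the libraries of harvests 3 and 2 overlap. MSTRG.19684 was at 0 TPM in all libraries of harvest 3 and in 2 of 3 of harvest 2, and could not be tested.

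The harvest comparisons have no library in common, although 3 pairs of their libraries were near-identical. The members lower at harvest 2 and those higher at harvest 3 shared 30 genes, 76.9% of the 39 and 73.2% of the 41. Over all genes tested, 351 had both calls, 34% of the 1033 that were lower at harvest 2 and 16.4% of the 2141 that were higher at harvest 3. Leaving the dying long pair out of the comparison with harvest 1, which removes these libraries, the shared number was 29, or 72.5% of the 40 lower members and 70.7% of the 41, and over all genes it was 278, or 25.2% of 1103 and 13% of 2141. In 37 members the group mean was lower at harvest 2 in all 4 pairs and higher at harvest 3 in the fifth pair, against 4.45% of the genes. The 30 shared members had means of 2.03 to 347 TPM in the 6 groups of the rule, with a median of 12.3 TPM. Of the 100 members, 50 were called neither lower at harvest 2 nor higher at harvest 3, which includes members with too few counts to be tested. Of the 73 members tested in both comparisons, 26 had neither call. These counts stand without the share of all genes, and nothing is read from them.

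**Figure D3:**
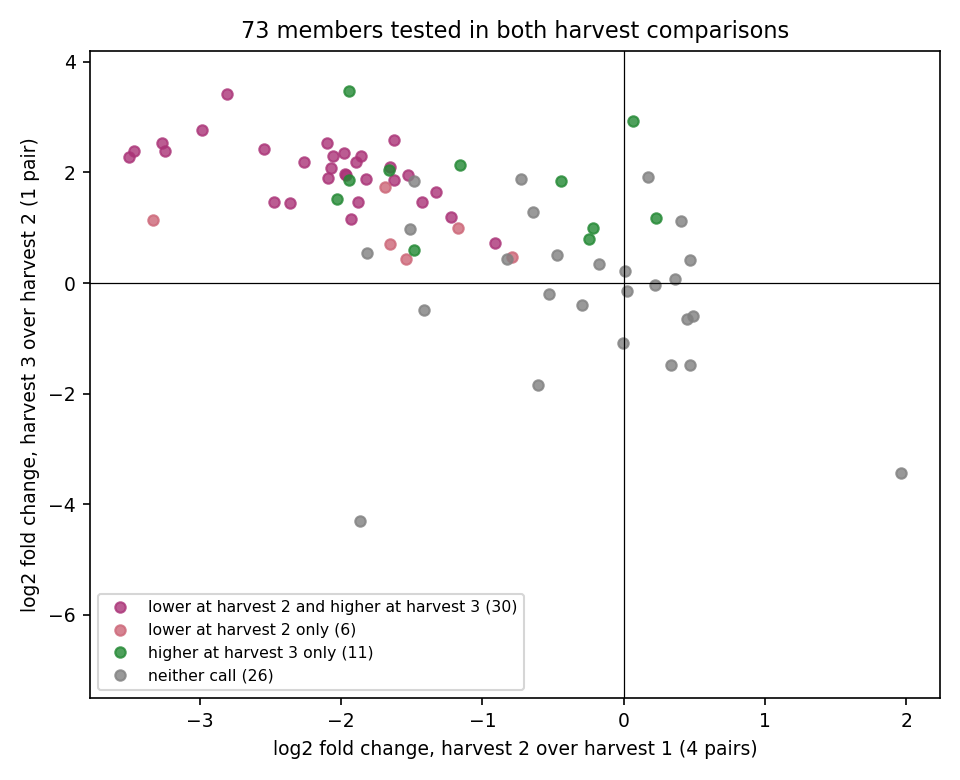
Fitted log2 fold changes of the 73 members tested in both harvest comparisons, harvest 2 over harvest 1 (x axis) and harvest 3 over harvest 2 (y axis), coloured by the calls of edgeR's quasi-likelihood test. The 30 members called in both lie in the upper left, and 26 had neither call, 2 of which were lower at harvest 3.

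The calls are given here by level, beside the share of genes called among those tested at the same level. Among the 36 members with a mean of at least 10 TPM in the groups of the rule, all 36 were tested and 22 were lower at harvest 2, and 25 of 34 tested were higher at harvest 3 (5.05% and 11.1% of genes). Of the 24 members between 5 and 10 TPM, 11 of 21 tested were lower and 10 of 18 were higher (4.08% and 9.3% of genes). Of the 40 members under 5 TPM, 6 of 30 tested were lower and 6 of 21 were higher (2.7% and 6.14% of genes). Low members rest on few counts, and the absence of a call there does not show that their levels were alike. Of the 48 tested members not called in the comparison of harvests 2 and 1, 31 had a negative log2 fold change.

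The 11 RT-qPCR genes, which are no members, give a scale of named genes. In the comparison of harvests 2 and 1, 0 were higher and 1 was lower, and at harvest 3 there were 3 higher and 2 lower than at harvest 2, by edgeR's quasi-likelihood test. The gene that was lower, WRKY (MSTRG.4799), belongs to a plant family of DNA-binding transcription factors known for roles in responses to pathogens and abiotic stress. It scored 0.63, just under the members, with means of 66.9, 4.96 and 11.7 TPM in lateral roots and 20.6, 4.51 and 7.23 TPM in taproots at harvests 1, 2 and 3 in the groups of the rule. In medium lateral roots it had 2.58, 1.65 and 2.26 TPM at harvest 2, against 90.7, 37.2 and 171 TPM at harvest 1. In long rhizotron taproots it had 9.98, 11.1 and 9.77 TPM at harvest 3, against 1.78, 1.51 and 1.5 TPM at harvest 2. Its log2 fold changes were −3.25 ± 0.54 for harvest 2 over harvest 1 and 2.60 ± 0.17 for harvest 3 over harvest 2 (SE; edgeR adjusted p = 6.75e-04 and 3.85e-04).

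Across groups outside the rule, the median over the members was correlated with WRKY. The Spearman correlation of group means was 0.82 over 19 groups of Dataset 1 and 0.77 over the 30 groups of Dataset 2, the highest of the 11 genes in both. GERL1 had 0.64 and 0.55. UBQ, a ubiquitin gene used as reference in RT-qPCR, had 0.68 in Dataset 1 and −0.04 in Dataset 2, and EF, an elongation factor gene used likewise, had −0.43 and −0.37. UBQ and EF did not pass the test in either harvest comparison. The points share root part, cultivation and near-identical libraries, WRKY was singled out after its values were seen, and the correlations are given as a description.

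**Figure D4:**
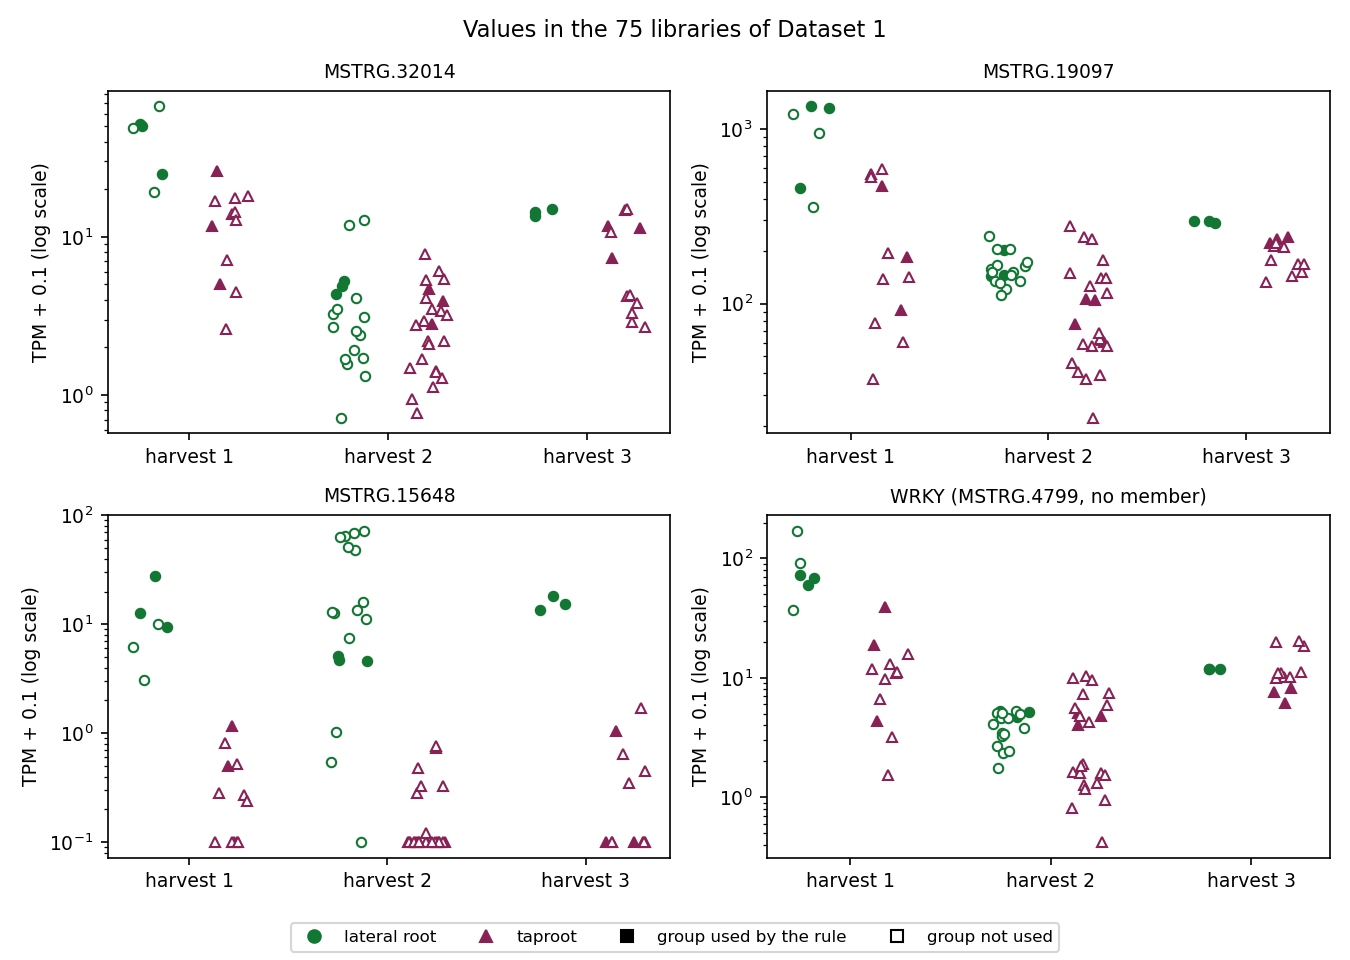
TPM + 0.1 on a log axis (y) in the 75 libraries of Dataset 1, by harvest (x), for 3 members and for WRKY, which is no member. Circles are lateral roots and triangles taproots, and filled symbols are groups that chose the members. MSTRG.32014, MSTRG.19097 and WRKY lay lower in most libraries of harvest 2, with overlap between harvests in taproots. MSTRG.15648 was near 0 in taproots at all harvests and in 3 lateral root libraries of harvest 2.

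Not every group of harvest 2 was low. Over the 12 groups of harvest 2 outside the rule, the group-mean TPM of the median member lay between 1.02 TPM in short container taproots and 6.10 TPM in long rhizotron lateral roots. The 4 groups of harvest 1 outside the rule lay between 2.22 and 8.77 TPM, and the 3 groups of harvest 3 between 5.17 and 6.06 TPM. Medium thick container taproots of harvest 2 had 5.57 TPM, with 4.49 to 6.16 TPM over the library medians, and long rhizotron lateral roots had 4.94 to 6.71 TPM. Both overlapped the libraries of harvest 3 outside the rule, which had medians of 4.37 to 6.61 TPM. Short taproots were the lowest group at harvest 1 as well as at harvest 2, with 2.22 and 1.02 TPM. The 30 groups of Dataset 2, which carry no harvest number, lay between 2.28 and 7.98 TPM with a median of 4.91 TPM.

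The remaining comparisons asked whether the members set root parts, cultivations or root states apart. Those of Dataset 1 share libraries with the harvest comparisons and with each other, so their calls are not separate findings. Medium normal container taproots and lateral roots of harvest 2, low in the comparison with harvest 1, entered each of them. In lateral roots against taproots of Dataset 1 (5 pairs, 15 libraries in each arm), 32 of 88 tested members were higher and 13 lower by edgeR's quasi-likelihood test, where 34.2% of 26064 genes were higher and 34% lower. The share of higher members, 36.4%, was close to that of all genes, and the share of lower members was 14.8%. The 5 pairs differed in direction. At harvest 1 the median log2 ratio of the members was 1.575 in medium normal container roots. At harvest 2 it was 0.94 in long normal rhizotron, 0.38 in medium normal container, −0.13 in medium normal rhizotron and −0.72 in medium thick container roots. Genes at the level of the rule had medians of −0.02, 0.18, −0.01, −0.03 and −0.01 in the same order. In Dataset 2 (7 pairs, 21 libraries in each arm), 19 of 89 were higher and 47 lower in lateral roots, where 31.7% of 27404 genes were higher and 35.4% lower. Members higher in both datasets numbered 15, or 46.9% and 78.9% of the higher members of Dataset 1 and Dataset 2, where over all genes the shares were 69.7% and 71.4%. Those lower in both numbered 11, or 84.6% of the 13 and 23.4% of the 47, where over all genes the shares were 72.5% and 66.3%. A further 9 were higher in lateral roots in Dataset 1 and lower in Dataset 2, or 28.1% of the 32 and 19.1% of the 47, against 5.26% and 4.83% over all genes, a change of direction that was not tested. Within Dataset 1 the median of the members already differed in sign between pairs.

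A pair of members marked the root types in both datasets. MSTRG.15648 had 2.99 to 72.6 TPM (median 13.4) in lateral roots of Dataset 1, against 0 to 0.63 TPM (median 0) in taproots, and 1.98 to 33.7 TPM (median 8.02) in lateral roots of Dataset 2, against 0 to 1.12 TPM (median 0) in taproots. MSTRG.25914 went the other way, with 0.06 to 1.04 TPM (median 0.34) in lateral roots of Dataset 1, against 3.03 to 25.8 TPM (median 6.61) in taproots. In Dataset 2 it had 0.17 to 2.15 TPM (median 0.76) in lateral roots, against 7.45 to 36.6 TPM (median 14.1) in taproots. MSTRG.4563 was higher in lateral roots too, with 348 to 1128 TPM (median 722), against 5.06 to 259 TPM (median 40.4) in taproots of Dataset 1, and 117 to 936 TPM (median 458), against 15.5 to 164 TPM (median 83.3) in Dataset 2, where 6 of 7 pairs were higher. For neither MSTRG.15648 nor MSTRG.25914 did lateral roots and taproots overlap in these libraries, although medium thick rhizotron lateral roots, outside these pairs, had 0.92, 0.44 and 0 TPM of MSTRG.15648. The fitted log2 fold changes of MSTRG.25914 were −4.51 ± 0.34 and −4.53 ± 0.26 (SE; edgeR adjusted p = 4.59e-12 and 9.22e-18). MSTRG.15648, near 0 in taproots, was higher with edgeR adjusted p = 1.99e-15 and 2.63e-11. With near-identical libraries summed, the edgeR adjusted p was 1.63e-09 and 1.53e-08 for MSTRG.25914, and 8.25e-12 and 3.9e-06 for MSTRG.15648.

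In thick against normal roots of Dataset 1 (4 pairs, 12 libraries in each arm), 29 of 86 tested members were higher and 4 lower by edgeR's quasi-likelihood test, where 11.4% of 25676 genes were higher and 14.9% lower. With near-identical libraries summed there were 11 higher and 0 lower, without replicate 2 there were 6 higher and 0 lower, and without replicate 3 there were 8 higher and 1 lower. The 4 pairs were unlike each other. In medium container taproots of harvest 2 the median log2 ratio of the members was 1.41, with 83 higher. Genes at the level of the rule had a median of 0.07 there, with 54.67% higher. The normal group of that pair also entered the comparison of harvests 2 and 1. In the other pairs the median of the members was 0.11, −0.55 and 0.06, against 0.06, −0.69 and −0.13 for genes at that level. In the pair at −0.55, medium rhizotron lateral roots, 90.18% of genes were lower. There the 3 genes with the most expected counts held 37.5% to 45.5% of all counts in thick libraries. MSTRG.13118 had 3.65 to 35.7 TPM (median 5.71) in thick roots, against 0.72 to 22.6 TPM (median 2.41) in normal roots, and was higher in all 4 pairs, by 1.48 ± 0.24 (SE; edgeR adjusted p = 2.12e-04). MSTRG.34162 fell, with 0 to 20.4 TPM (median 0.27) in thick roots, against 0 to 43.0 TPM (median 17.4) in normal roots (edgeR adjusted p = 0.0323, and 0.336 with near-identical libraries summed).

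In rhizotrons against containers, 18 of 85 tested members were higher and 7 lower in Dataset 1 by edgeR's quasi-likelihood test, where 8.45% of 25759 genes were higher and 9.54% lower. With near-identical libraries summed this became 1 higher and 3 lower, with limma on TPM 9 higher and 10 lower, without TMM factors 11 higher and 7 lower, and without replicate 1 there were 4 higher and 7 lower. Without replicate 2 there were 3 higher and 2 lower, and without replicate 3 there were 11 higher and 4 lower. The median ratio of the members was 0.96 in medium normal taproots, 0.08 in medium normal lateral roots, −0.78 in medium thick lateral roots and 0.00 in long thick taproots of harvest 3. All genes at the level of the rule were at 0.02, 0.00, −0.76 and −0.27 in the same order. The container group of the pair at 0.96 was also the normal group of the pair at 1.41 in the thick comparison, so both ratios share a reference. In the rhizotron libraries of the pair at −0.78 the 3 genes with the most expected counts held 37.5% to 45.5% of all counts. MSTRG.2577 fell, with 0 to 17.9 TPM (median 0.23) in rhizotrons, against 1.27 to 31.5 TPM (median 5.36) in containers (log2 fold change −3.57 ± 0.86, SE; edgeR adjusted p = 6.67e-03, and 0.0861 with near-identical libraries summed). In Dataset 2, 3 of 88 were higher and 14 lower in rhizotrons, where 6.49% of 26823 genes were higher and 8.92% lower. Without replicate 2 a single member was called, and without replicate 1 or 3 there were 11. With near-identical libraries summed 0 were called by edgeR. At an unadjusted p under 0.05 of that fit there were 17 members, beside 10.9% of 27840 genes. MSTRG.6365 was the named member that fell, with 0.39 to 8.97 TPM (median 2.34) in rhizotrons, against 0.18 to 25.9 TPM (median 6.88) in containers (edgeR adjusted p = 0.0161, and 0.36 with near-identical libraries summed).

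In the elongation zone against the meristematic zone of taproots of Dataset 2 (8 pairs, 24 libraries in each arm), 20 of 89 tested members were higher and 12 lower by edgeR's quasi-likelihood test, where 32.5% of 27117 genes were higher and 32.8% lower. Both shares, 22.5% and 13.5%, were below those of all genes. With limma on TPM 34 members were higher and 10 lower, given without the share of all genes, so nothing is read from that split. MSTRG.4563 had 167 to 777 TPM (median 520) in the elongation zone, against 15.5 to 164 TPM (median 91.9) in the meristematic zone. The zones did not overlap in this member, whose log2 fold change was 2.26 ± 0.13 (SE; edgeR adjusted p = 4.25e-18, and 2.7e-08 with near-identical libraries summed). MSTRG.21131 fell in all 8 pairs, with 0.10 to 13.0 TPM (median 0.85) in the elongation zone, against 0.90 to 108 TPM (median 11.7) in the meristematic zone.

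In the comparison of transplanted with container roots of Dataset 2 (5 pairs, 15 libraries in each arm), the transplanted seedlings had been sown in the previous year. They grew in rhizotrons when harvested, so plant age, cultivation and transplanting cannot be told apart. Of 87 tested members, 9 were higher and 5 lower by edgeR's quasi-likelihood test, where 12.1% of 26434 genes were higher and 11.4% lower. Without replicate 1 this was 4 higher and 5 lower, without replicate 2 it was 1 and 3, without replicate 3 it was 5 and 3, and with near-identical libraries summed it was 0 and 2. MSTRG.34162 had 0 to 2.92 TPM (median 0.67) in transplanted roots, against 0 to 54.9 TPM (median 14.7) in container roots, and fell by 4.12 ± 0.47 on the log2 scale (SE; edgeR adjusted p = 5.73e-07). MSTRG.10158 rose, with 5.26 to 29.9 TPM (median 14.1) in transplanted roots, against 4.73 to 11.4 TPM (median 7.17) in container roots (edgeR adjusted p = 7.22e-04, and 0.0622 with near-identical libraries summed). In dying against active roots of Dataset 2 (4 pairs, 12 libraries in each arm), 22 of 86 were higher and 27 lower, where 22% of 26285 genes were higher and 24.3% lower, so that the shares of the members, 25.6% and 31.4%, were near those of all genes. With near-identical libraries summed 0 members were called by edgeR, and 5 genes in all. At an unadjusted p under 0.05 of that fit there were 25 members, beside 14.69% of 29537 genes. MSTRG.10485 had 6.77 to 20.3 TPM (median 13.5) in dying roots, against 9.86 to 40.9 TPM (median 36.1) in active roots, and MSTRG.21131 was higher, with medians of 10.4 TPM in dying roots and 1.55 TPM in active roots, both calls that were lost with near-identical libraries summed (edgeR adjusted p = 0.21 and 0.321).

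**Figure D5:**
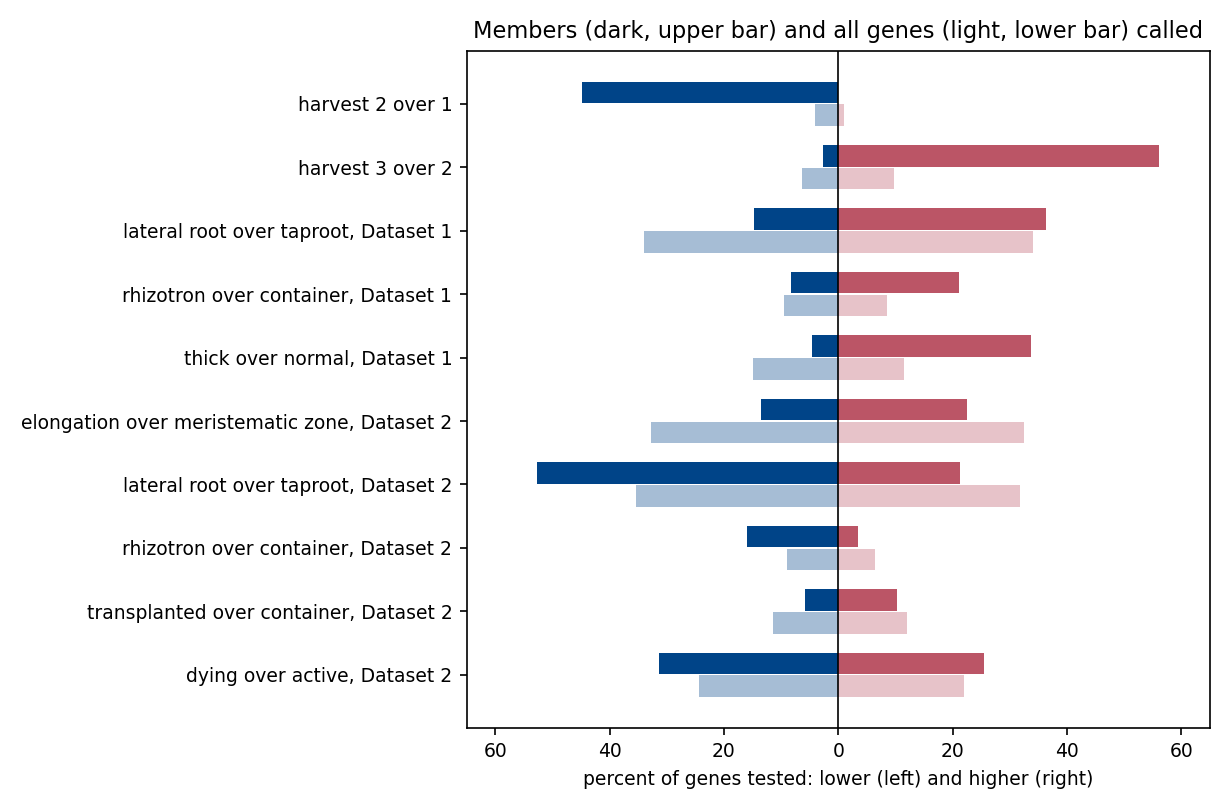
Percent of genes called lower (bars to the left) and higher (bars to the right) in each of 10 comparisons, for the tested members (dark, upper bar) and for all genes tested (light, lower bar), by edgeR's quasi-likelihood test. The members exceed all genes most in the harvest comparisons, with 44.8% lower at harvest 2 against 4.06% and 56.2% higher at harvest 3 against 9.72%.

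Over the 10 comparisons a member was called in 4 at the median and in 8 at most, and 13 members were called in none. A gene at the level of the rule was called in 4 at the median and in 10 at most, and 3.7% of these genes were called in none.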

How the data were processed

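The members, the lists and the comparisons were chosen with earlier results of these data known. The authors trimmed the reads, removed ribosomal RNA, mapped to the oak genome with STAR and assembled transcripts with StringTie. RSEM, run on strand-aware Bowtie 2 alignments, gave the expected counts that the authors deposited for each library, with no scaling and no minimum. The TPM deposited beside them were scaled by RSEM for gene length and library.

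Levels are in TPM. Rounded expected counts were tested in R 4.3.3 with edgeR 4.0.16: filterByExpr (minimum count 10), TMM factors, a quasi-likelihood fit with a term for each matched pair, no block for replicate number, and Benjamini-Hochberg adjustment over all genes tested (threshold 0.05). Standard errors were derived from the F statistic and are approximate. The 6 groups of the rule entered no test. Same-numbered libraries were not taken as pairs: of 49 matched pairs of groups, 4 had all 3 correlations of deviations over 0.1.

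Named are the 2 members of highest score, the 2 of highest mean TPM, and in each comparison the called member with the largest change in each direction (2 for harvests), given a mean of 5 TPM or more and a like sign in all matched pairs, beside the RT-qPCR genes. Alternatives were DESeq2 1.42.0, limma 3.58.1 (TPM + 1 on the log2 scale), omitted TMM factors, an omitted filter, a mean count of 50 or more, a 2-fold limit, a replicate block, each replicate left out, and near-identical libraries summed. Repeats without the dying long pair, with taproot pairs alone, and without the long rhizotron pair in the root type comparison were chosen after seeing the data. Python 3.11.15, numpy 2.4.6, pandas 2.3.3 and matplotlib 3.10.9 were used otherwise.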

Additional observations from a re-analysis of the deposited data

How the results depend on the processing

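Members called are given here as totals of both directions. The choice of the 100 genes itself moved with the rule: 37 were kept without the long container taproots of harvest 1, 59 with medians of libraries, 60 with a mean of 5 TPM, 62 with CPM and TMM factors, and 50 to 60 with a replicate left out. With near-identical libraries summed, the members called were 3 for harvest 3 over 2, 4 for rhizotrons in Dataset 1 (1 higher, 3 lower), 11 for thick roots, 0 for rhizotrons in Dataset 2, 2 for transplanted roots (0 higher, 2 lower) and 0 for dying roots, by edgeR. All genes called were then 620 in place of 1271 for harvest 2 over 1, 43 in place of 3551 for harvest 3 over 2, 652 in place of 4635 and 78 in place of 4134 for rhizotrons in Dataset 1 and Dataset 2, 2125 in place of 6756 for thick roots, and 1073 in place of 6207 for transplanted roots. For dying roots 5 genes were called in place of 5780 higher and 6394 lower.

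With a replicate left out, members called ran from 12 to 45 for harvest 2 over 1, 8 to 63 for harvest 3 over 2, 5 to 15 for rhizotrons in Dataset 1, 6 to 25 for thick roots, 1 to 11 for rhizotrons in Dataset 2 and 4 to 9 for transplanted roots. The lowest value was without replicate 2 in each of these. All genes called then ran from 192 to 1296, 144 to 9899, 491 to 1749, 1342 to 4310, 763 to 3578 and 1451 to 4557 in the same order, and from 7458 to 7910 for dying roots. More calls were lower than higher without replicate 1 for rhizotrons in Dataset 1 (11) and without replicate 1 (9) or 2 (4) for transplanted roots. Taproot pairs alone gave 22 for harvest 2 over 1, of 546 genes. A fold change of at least 2 left 15 for rhizotrons in Dataset 1, 21 for thick roots, 18 for the elongation zone, 6 for transplanted roots (2 higher, 4 lower) and 16 for dying roots (9 higher, 7 lower). A mean count of at least 50 left 14 for rhizotrons in Dataset 1, 21 for the elongation zone and 8 for rhizotrons in Dataset 2. The counts under the fold change and mean count limits stand without the share of all genes, and nothing about the members is read from them. Rhizotrons in Dataset 1 had 19 with limma (9 higher, 10 lower), and thick roots had 20 without TMM factors.

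Scaling moved the median log2 fold change of all genes to −0.23 without TMM factors and −0.22 with limma for rhizotrons in Dataset 1, where 751 of 7049 and 866 of 9366 called genes were then higher, and to −0.12 and −0.13 for thick roots, with 1373 genes higher and 5050 lower without TMM factors. For the elongation zone it was 0.11 and 0.12 (10386 genes higher and 7242 lower without TMM factors, in place of 8809 and 8905), and for lateral roots of Dataset 2 0.12 and 0.18 (10973 and 7288, in place of 8697 and 9690). DESeq2 called 2144 genes for harvest 2 over 1, in place of 1271. With replicate number as a block, 39 members were called for harvest 2 over 1, all lower, and 36 higher and 3 lower for harvest 3 over 2. The block moved no count of members by over 1.5 times. Of the named members, 440 values under alternatives kept their side of the threshold, 58 lost a call and 1 gained one. No called value turned sign, and 8 values that were not called did, none of them called under the alternative either. Low counts limit the 40 members under 5 TPM. Apart from the summing of libraries and the omission of samples or genes, the cause of these changes was not tested.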
